A study of Homo sapiens with 9 samples.

Results

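The epidermal growth factor (EGF) receptor gene EGFR was followed together with 7 genes that encode its partners, ligands and inhibitor: the receptor genes ERBB2 and ERBB3, the ligand genes AREG, EREG, HBEGF and TGFA, and ERRFI1, which encodes an inhibitor of the receptor kinase. These 8 genes were taken by symbol, through their Ensembl identifiers, from a table of 61093 genes. Their values entered no selection rule, but they were chosen with earlier results of these data known. All 8 passed the filter on low values, which asked for 10 or more normalized counts in 3 or more of the 9 libraries and left 17492 genes. A normalized count is a gene's read count divided by a size factor of its library.

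Messenger RNA libraries were made from the total RNA of cells labelled HepG2, an established human liver tumour line, in 3 groups of 3: untreated control, SKF-96365 and 2-APB. The series presents SKF-96365 as a TRPV2 inhibitor and 2-APB as a TRPV2 agonist; TRPV2 is a calcium-permeable cation channel, and both compounds are known to act on other calcium entry routes as well. No genetic change is named for any group, and dose, exposure time, vehicle and batch are not given in the sources used here. The 2-APB libraries carry titles reading ABP and value columns named TRPV2, and were assigned by their treatment label. Nothing states that the 3 libraries of a group came from separate cultures, so p-values measure the spread between these libraries only, which may be technical.

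Depth ran from 14786059 to 19026545 reads per library. The cell label was checked against 10 hepatocyte marker genes, of which 8 never reached 20 normalized counts; ALB peaked at 11.8, HNF4A at 2.58, and SERPINA1 alone had a mean above 50. Of 5 epithelial markers, KRT8, KRT18 and KRT19 were high in every library, whereas EPCAM reached at most 19.8 and CDH1 had a mean of 42.4, with 101 in control 3. All 5 mesenchymal markers, VIM the highest, had a mean above 50, and 4 blood and endothelial markers stayed under 20. The transcripts that define hepatocytes were thus at or near 0 in these cells, with the exception of SERPINA1. Some libraries stood closer to another group than to their own. Control 3 had a Pearson r across genes of 0.961 to control 1, 0.957 to control 2 and 0.988 to SKF-96365 2, and SKF-96365 1 was closest to 2-APB 3 (0.988). In turn 2-APB 3 was closest to SKF-96365 1, with 0.980 to 2-APB 1 and 0.981 to 2-APB 2. Control 1 was closest to 2-APB 3 (0.986), with 0.978 to control 2. Of all pairs, 2-APB 1 and 2-APB 2 were the most alike (0.990). Within-group r ran from 0.957 to 0.990 and between-group r from 0.958 to 0.988. Where leaving out control 3 and SKF-96365 1 together changed a call or a sign of a gene named here, the value without them is also given.

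EGFR, ERBB2, ERBB3 and ERBB4 are receptor tyrosine kinases that signal as dimers. ERBB2 has no known ligand of its own and serves as a preferred partner, and ERBB3, a receptor for neuregulins, has a weak kinase and recruits phosphatidylinositol 3-kinase. Ligands are made as membrane-anchored precursors that proteases such as ADAM17 cut free to act on the same or a neighbouring cell; signalling runs through RAS and ERK, and several ligand genes are themselves known to respond to ERK. In liver, EGFR signalling is known for its part in regeneration, with AREG and HBEGF among the ligands made after injury.

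The sequences upstream of 3 ligand genes are shown because AREG and EREG, neighbours on chromosome 4, had low levels in the same libraries, whereas HBEGF, on chromosome 5, followed another pattern. Each is the 250 bases before the start site in RefSeq (GRCh38.p14), 5′ to 3′ on the gene's strand, with capitals marking matches to any of 4 motifs searched on both strands: AP-1 (TGANTCA), CRE (TGACGTCA), SP1 (GGGCGG, or CCGCCC on the other strand) and TEAD (GGAATG, or CATTCC on the other strand). The AREG sequence lies at chr4:74444886-74445135 on the plus strand, that of EREG at chr4:74364895-74365144 on the plus strand, and that of HBEGF at chr5:140346604-140346853 on the minus strand.
AREG: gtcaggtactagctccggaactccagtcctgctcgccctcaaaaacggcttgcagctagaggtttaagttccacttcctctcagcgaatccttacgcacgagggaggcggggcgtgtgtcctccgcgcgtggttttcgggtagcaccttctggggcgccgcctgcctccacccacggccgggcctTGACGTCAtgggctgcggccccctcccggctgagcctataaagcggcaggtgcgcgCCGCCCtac
EREG: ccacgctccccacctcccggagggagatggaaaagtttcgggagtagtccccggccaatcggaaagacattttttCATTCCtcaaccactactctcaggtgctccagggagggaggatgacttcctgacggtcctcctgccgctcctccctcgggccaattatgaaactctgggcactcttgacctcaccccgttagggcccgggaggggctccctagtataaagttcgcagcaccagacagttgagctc
HBEGF: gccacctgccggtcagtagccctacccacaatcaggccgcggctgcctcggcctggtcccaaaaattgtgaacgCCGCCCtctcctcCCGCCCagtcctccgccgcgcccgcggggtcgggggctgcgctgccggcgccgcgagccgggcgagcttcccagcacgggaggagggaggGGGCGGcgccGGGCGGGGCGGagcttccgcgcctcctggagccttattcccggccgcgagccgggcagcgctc

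The CRE letters in AREG begin at position -65 from the start site and an SP1 match at -9. In EREG a single TEAD match begins at -175, and HBEGF has 5 SP1 matches from -176 to -58, of which the last 2 overlap by 1 base. In the full windows, which also take in 50 bases after the start, CRE occurred in 1.85% of 35116 promoters of 300 bases, SP1 in 44.95%, TEAD in 14.0% and AP-1 in 7.71%. The window of ERRFI1 held 1 SP1 match, at -70. In TGFA 1 window held 4 SP1 matches, from -204 to 44, and another held 0. In EGFR 1 window held 3, from -204 to 43. EPGN, which lies beside EREG, had 0 matches to each of the 4 motifs. AP-1 letters were found in the window of ERBB2, at -222, and in an alternative EGFR start window at -232 and -136. The ERBB2 window, the only one listed for that gene, spans chr17:39687844-39688143. It lies inside PGAP3 (chr17:39671122-39696797), which is on the other strand. ERBB3 had no entry in the promoter table used. A match of letters is a description and not evidence of binding.

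None of the 8 genes was called in any comparison. In limma, at a Benjamini-Hochberg adjusted p under 0.05 over all 17492 genes, 0% of genes were called for SKF-96365 against control, 0% for 2-APB against control and 0% for 2-APB against SKF-96365. At an unadjusted p under 0.05, 1 of the 8 genes (ERRFI1) passed for SKF-96365 against control, beside 4.0% of all genes. For 2-APB against control 2 passed (AREG and EREG), beside 2.80%, and for 2-APB against SKF-96365 3 passed (AREG, EREG and ERRFI1), beside 7.30%. On the reads recovered from 8 libraries, edgeR called 0 genes in each comparison (261, 376 and 497 at an unadjusted p under 0.05), and DESeq2 called 2, 0 and 1 (245, 352 and 482), none of them among the 8.

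Groups that do not overlap give another count. With SKF-96365, 1 of the 8 genes (ERRFI1) had all 3 libraries above all controls, beside 3.26% of all genes, and 0 had all 3 below, beside 2.94%. With 2-APB, 2 of the 8 (AREG and EREG) had all 3 libraries below all controls, beside 3.97% of all genes, and 3 (AREG, EREG and ERRFI1) had all 3 below all SKF-96365 libraries, beside 8.79%. AREG and EREG were also below all 6 other libraries, a placement that 286 genes (1.64%) shared.

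**Figure D1:**
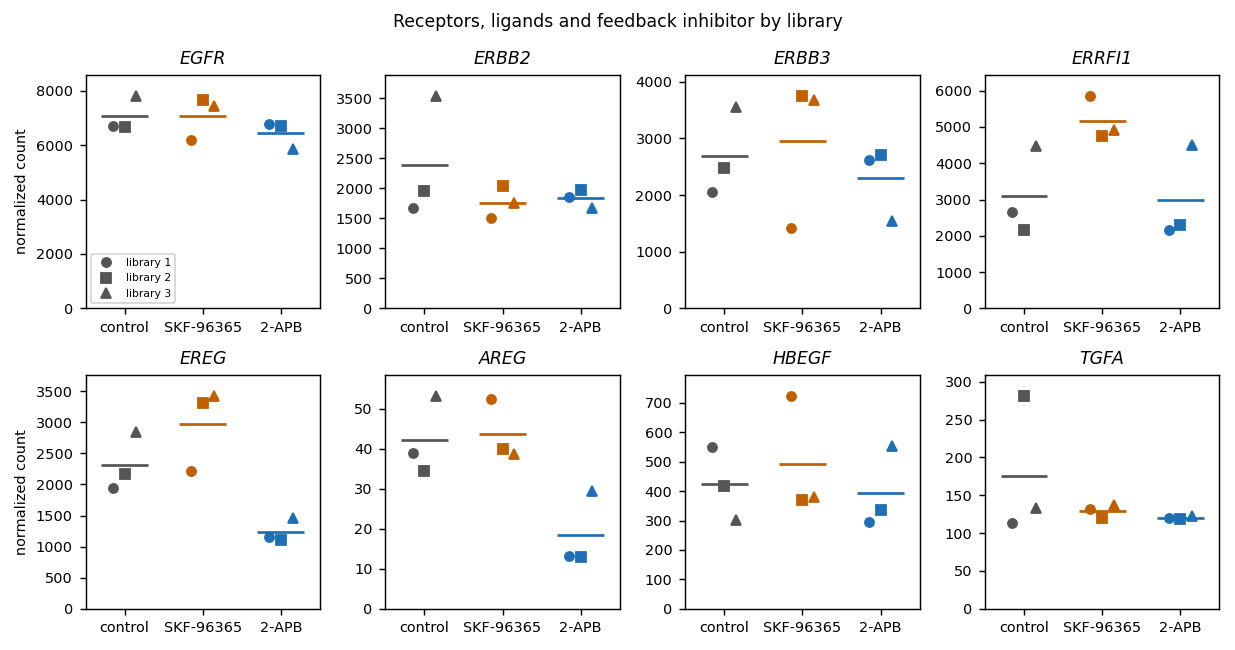
Normalized count of each of the 8 genes (y axis, from 0) in the 3 libraries of control, SKF-96365 and 2-APB (x axis); symbols mark libraries 1 to 3 and lines the group means. EREG and AREG lie below all 6 other libraries in the 3 2-APB libraries, ERRFI1 lies above all controls with SKF-96365, and ERBB2 and TGFA each have a single high control library.

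The receptor EGFR itself varied little. Values of libraries 1, 2 and 3 of a group are given in that order: EGFR had 6717, 6669 and 7808 normalized counts in the controls, 6169.7, 7644 and 7437 with SKF-96365, and 6758, 6700.5 and 5842 with 2-APB. The highest library was 1.34 times the lowest, and the groups overlapped in all comparisons. Its log2 fold change, computed on the normalized count plus 1 as are all those below, was 0.0013 with SKF-96365 (SE 0.13, 95% interval -0.28 to 0.28, adjusted p = 0.997) and -0.13 with 2-APB (SE 0.13, interval -0.41 to 0.15, adjusted p = 0.9995). The same holds for 2-APB against SKF-96365, at -0.14 (interval -0.42 to 0.14). In bulk RNA, fewer cells of a type and less RNA per cell cannot be told apart, here and in all that follows.

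ERBB2, the partner receptor without a ligand of its own, had 1674, 1952 and 3540 normalized counts in the controls, 1502, 2038 and 1749 with SKF-96365, and 1860.3, 1972 and 1667 with 2-APB. Control 3 stood apart from the other 8 libraries, which reached at most 2038. The log2 fold change was -0.37 with SKF-96365 (SE 0.24, adjusted p = 0.789) and -0.31 with 2-APB (SE 0.24, adjusted p = 0.9995), and without control 3 and SKF-96365 1 these became 0.063 and 0.017. ERBB2 shares its position with PGAP3 (mean 156) and MIEN1 (mean 280) on the other strand, and whether the counting used strand is not stated.

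ERBB3 ranged more widely within groups than between them. It had 2047, 2478 and 3556 normalized counts in the controls, 1424, 3752 and 3681 with SKF-96365, and 2627, 2708 and 1548 with 2-APB. High values fell in libraries 2 and 3 of SKF-96365 and in control 3, and low values in SKF-96365 1 and 2-APB 3. Its log2 fold change was 0.042 with SKF-96365 (SE 0.37, adjusted p = 0.976) and -0.24 with 2-APB (SE 0.37, adjusted p = 0.9995). Leaving out control 3 and SKF-96365 1 moved the first to 0.72 (adjusted p = 0.0458). ERBB4, the fourth receptor, was below the filter, with 65.7 normalized counts in control 3 and at most 6.01 in the other 8 libraries.

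Levels between genes were compared per kilobase of merged exon, with lengths from GENCODE 29. EGFR had a mean of 548 normalized counts per kilobase over the 9 libraries, ERBB3 293 and ERBB2 193. Among the ligands, EREG had 381, HBEGF 145, TGFA 28.6 and AREG 21.1 normalized counts per kilobase, and ERRFI1, at 897, was the highest of the 8 genes. In the order ERRFI1, EGFR, EREG, ERBB3, ERBB2, HBEGF, TGFA and AREG, the ranges of neighbours overlapped with 1 exception: HBEGF, at 97.7 to 239.7 over the 9 libraries, lay above TGFA, at 22.9 to 56.6. EGFR ran from 467 to 624 and AREG from 7.82 to 32.3.

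EREG encodes epiregulin, a ligand of EGFR and ERBB4. It had 1936, 2172 and 2849 normalized counts in the controls, 2208, 3304 and 3420.5 with SKF-96365, and 1149.9, 1107 and 1458 with 2-APB. All 3 libraries given 2-APB lay below all 6 others, and the SKF-96365 libraries overlapped the controls. The 2-APB mean of 1238 ± 192 (SD, n = 3) stood against 2319 ± 474 in control (n = 3) and 2978 ± 669 with SKF-96365 (n = 3).

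For 2-APB against control the log2 fold change of EREG was -0.90 (SE 0.20, 95% interval -1.34 to -0.45), or 1.86-fold lower. Its unadjusted p of 0.00117 ranked 3 of 17492 genes, and the adjusted p was 0.9995, so the difference did not pass the test over all genes. Against SKF-96365 it was -1.25 (SE 0.20, interval -1.70 to -0.80), with the smallest unadjusted p of all genes in that comparison (9.15e-05) and an adjusted p of 0.684. For SKF-96365 against control it was 0.35 (SE 0.20, interval -0.095 to 0.80, adjusted p = 0.789). Over 21 alternative settings the 2-APB value against control stayed between -1.02 and -0.74, with adjusted p from 0.155 to 1. Against SKF-96365 it stayed between -1.45 and -1.14; limma called it there in 1 setting, without control 3 and SKF-96365 1 (adjusted p = 0.000433).

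AREG encodes amphiregulin, a ligand of EGFR that is typically shed by ADAM17. It was the least abundant of the 8 genes, at 38.9, 34.5 and 53.2 normalized counts in the controls, 52.4, 40.1 and 38.7 with SKF-96365, and 13.2, 12.9 and 29.6 with 2-APB. Again the 2-APB libraries were all lower than the other 6, but 2-APB 3 lay well above the other pair given 2-APB.

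These AREG values rest on few reads: 37, 34 and 51 in the controls, 60 and 39 in SKF-96365 1 and 2, and 12, 15 and 30 with 2-APB. The exact 95% Poisson interval, which covers counting error only, was 6.797 to 23.0 normalized counts in 2-APB 1, 7.21 to 21.2 in 2-APB 2 and 19.96 to 42.2 in 2-APB 3. The lowest control bound was 23.9, in control 2. So 2-APB 1 and 2-APB 2 were apart from every control beyond counting error, and 2-APB 3 was not.

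For 2-APB against control the log2 fold change of AREG was -1.23 (SE 0.35, interval -2.01 to -0.44, unadjusted p = 0.00575, adjusted p = 0.9995), or 2.34-fold lower. Against SKF-96365 it was -1.29 (SE 0.35, interval -2.07 to -0.50, adjusted p = 0.684), and SKF-96365 against control gave 0.060 (SE 0.35, adjusted p = 0.965). Without 2-APB 3 the value against control was -1.60, and with 2-APB 1 and 2-APB 2 averaged as 1 library it was -1.04. No setting called AREG, and the smallest adjusted p against control was 0.254.

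HBEGF encodes heparin-binding EGF-like growth factor, a ligand of EGFR and ERBB4. It had 551, 419 and 303 normalized counts in the controls, 723, 369 and 381 with SKF-96365, and 295, 336 and 553 with 2-APB. High values came from control 1, SKF-96365 1 and 2-APB 3, 1 library of each group, and the groups overlapped. Its log2 fold change was 0.18 with SKF-96365 (SE 0.32, interval -0.54 to 0.90, adjusted p = 0.873) and -0.12 with 2-APB (SE 0.32, interval -0.83 to 0.60, adjusted p = 0.9995).

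TGFA encodes transforming growth factor alpha, an EGFR ligand. It had 114, 281 and 133 normalized counts in the controls, 132, 120 and 137 with SKF-96365, and 119, 119 and 122 with 2-APB. Control 2 stood far above the rest, and the other 8 lay between 114 and 137. Log2 fold changes were -0.32 with SKF-96365 (SE 0.29, adjusted p = 0.792) and -0.43 with 2-APB (SE 0.29, adjusted p = 0.9995). Both rested on control 2: without it the SKF-96365 value was 0.077 and the 2-APB value -0.031.

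**Figure D2:**
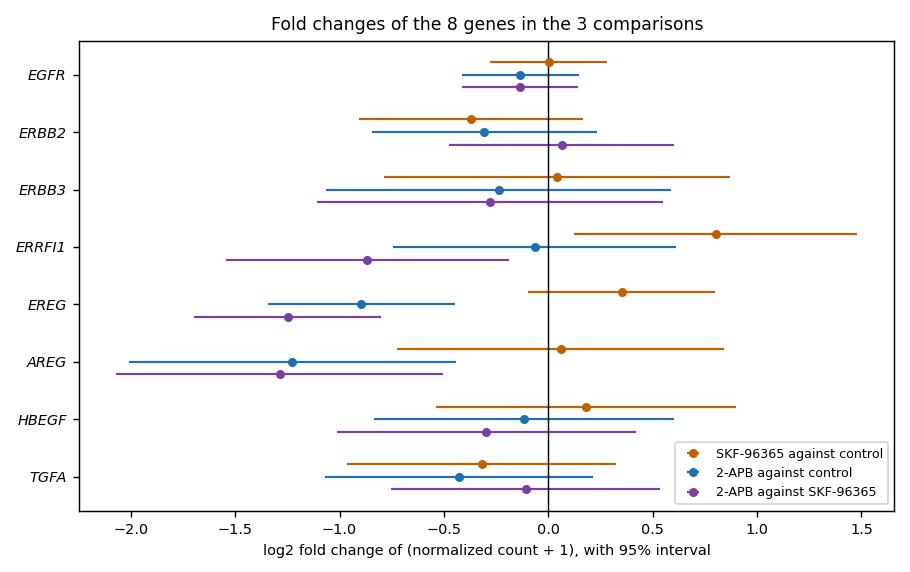
Log2 fold change of the normalized count plus 1 (x axis) of each gene (y axis) in the 3 comparisons, as limma's estimate with its unadjusted 95% interval. Intervals of EREG and AREG lie below 0 in both comparisons with 2-APB, those of ERRFI1 lie away from 0 in both comparisons with SKF-96365, and no gene passed the test after adjustment over 17492 genes.

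ERRFI1, also called MIG6, encodes a protein that binds the EGFR kinase domain and blocks it, and the receptor's own signalling is known to induce it. It had 2653, 2172 and 4474 normalized counts in the controls, 5858, 4750.1 and 4919 with SKF-96365, and 2169, 2308 and 4499 with 2-APB. The SKF-96365 libraries were the 3 highest of the 9, and control 3 and 2-APB 3 each stood well above the other pair of their group. The control mean was 3099 ± 1214 (SD, n = 3), that of SKF-96365 5176 ± 597 (n = 3) and that of 2-APB 2992 ± 1307 (n = 3).

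For SKF-96365 against control the log2 fold change of ERRFI1 was 0.80 (SE 0.31, 95% interval 0.13 to 1.48, unadjusted p = 0.0246, adjusted p = 0.789), or 1.74-fold. For 2-APB against SKF-96365 it was -0.87 (SE 0.31, interval -1.55 to -0.19, adjusted p = 0.684), and for 2-APB against control -0.065 (SE 0.31, adjusted p = 0.9995). Over 21 settings the SKF-96365 value ran from 0.58 to 1.102 and its adjusted p from 0.0297 to 1. It was 1.102 without control 3 (adjusted p = 0.0647) and 1.01 without control 3 and SKF-96365 1 (adjusted p = 0.0297). The antisense gene AL034417.4 overlaps ERRFI1, with a mean of 49.1 normalized counts, far below ERRFI1.

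The family's remaining ligand and receptor genes were EPGN, NRG1, NRG2 and NRG4, which passed the filter, and ERBB4, EGF, BTC and NRG3, which did not. EGF had a mean of 0.231 normalized counts, BTC 3.16 and NRG3 0.694. NRG1, which encodes a neuregulin read by ERBB3 and ERBB4, ran from 4452 to 5682 and had log2 fold changes of -0.11 with SKF-96365 and -0.12 with 2-APB (SE 0.11 each). None of the 4 tested genes was called, and with 2-APB all 4 were negative with a median of -0.23, beside -0.0016 and 50.3% negative over all genes. NRG2 (-0.35, SE 0.48) and NRG4 (-0.052, SE 0.42) were negative by less than their SE. Their means were low, at 11.2 and 19.5 normalized counts.

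EPGN encodes epigen, another EGFR ligand, and its gene lies next to EREG. It had 2108, 1875 and 2206 normalized counts in the controls, 2417, 2258 and 2401 with SKF-96365, and 1329, 1440.2 and 1858 with 2-APB. As for AREG and EREG, all 2-APB libraries were below all 6 others, though the highest, at 1858, was close to control 2. The log2 fold change was -0.43 against control (SE 0.14, unadjusted p = 0.00989, adjusted p = 0.9995) and -0.63 against SKF-96365 (SE 0.14, unadjusted p = 0.000925, adjusted p = 0.684).

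EPGN, EREG and AREG stand in that order on the plus strand of chromosome 4 (GRCh38, GENCODE 29), at 74308473 to 74315307, 74365143 to 74388751 and 74445134 to 74455009. Gaps of 49.8 kb and 56.4 kb separate them with no protein-coding gene between, and BTC follows 289.7 kb after AREG on the other strand. The 3 expressed genes of this cluster had 2-APB fold changes against control of -0.43, -0.90 and -1.23, and the SE of AREG (0.35) exceeds the step from EREG to AREG. Outside the cluster, MTHFD2L, just before EPGN, was at -0.26, and the chemokine genes CXCL2, CXCL3, CXCL8 and CXCL1 farther out were at -0.96, -0.72, -0.51 and -0.28. All 5 of these neighbours, looked up after the values of the cluster were seen, overlapped between 2-APB and control. CXCL2, for example, had 302 normalized counts in 2-APB 3 and 92.3 in control 2. Against SKF-96365, CXCL2 did not overlap, at 74.5, 80.7 and 302 with 2-APB and 516, 475 and 508 with SKF-96365. The other neighbours overlapped there as well.

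**Figure D3:**
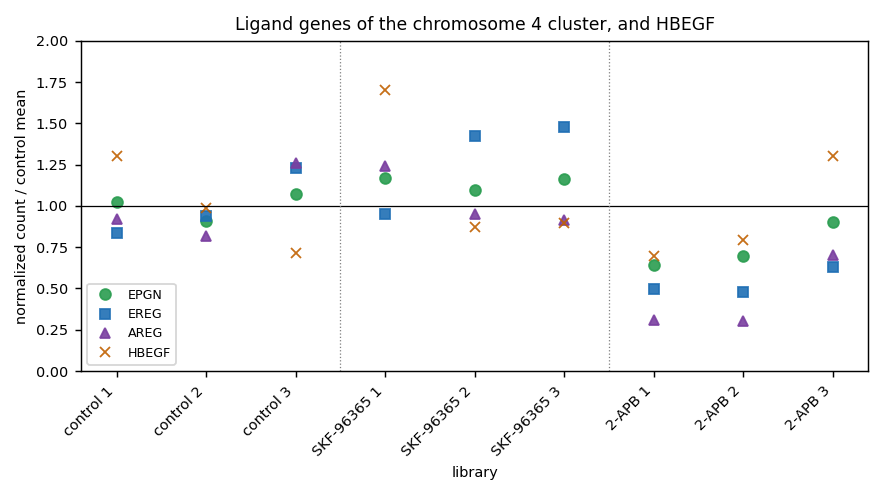
Normalized count of EPGN, EREG, AREG and HBEGF relative to the gene's own control mean (y axis, from 0, control mean at 1) in each of the 9 libraries (x axis; dotted lines part the groups). The 3 genes of the chromosome 4 cluster are below 1 in all 2-APB libraries, whereas HBEGF is high in control 1, SKF-96365 1 and 2-APB 3.

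Summed per kilobase, the 7 EGFR ligand genes (EGF, TGFA, AREG, EREG, HBEGF, BTC and EPGN) gave 1065, 1131 and 1505 normalized counts in the 2-APB libraries and 1631 to 2100 in the other 6. EPGN took 62.4% to 70.2% of this sum in every library, EREG 16.9% to 28.96% and HBEGF 5.34% to 12.2%, while AREG never exceeded 1.72% and TGFA 3.47%. The EREG share was 16.9% to 18.9% with 2-APB, 19.6% to 26.6% in control and 19.2% to 28.96% with SKF-96365. Shares of one sum move together, so a lower EREG share raises the others by construction.

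Set against the receptor, control EREG stood at 32.6 ± 3.8 normalized counts per 100 of EGFR (SD, n = 3, without correction for length). The same ratio was 41.7 ± 5.3 (n = 3) in the SKF-96365 group and 19.5 ± 4.7 (n = 3) in the 2-APB group. For ERRFI1 the ratios in this order of groups were 43.1 ± 12.8, 74.4 ± 17.9 and 47.9 ± 25.3 (SD, n = 3 each). The 2-APB range for EREG, 16.5 to 24.96, lay below the control range of 28.8 to 36.5. That of AREG, 0.192 to 0.506, lay just below its control range of 0.517 to 0.682. For EPGN the 2-APB range, 19.7 to 31.8, overlapped the control range of 28.1 to 31.4. HBEGF also overlapped, at 4.36 to 9.47 with 2-APB and 3.88 to 8.21 in control. The ERRFI1 range with 2-APB, 32.1 to 77.0, overlapped both other groups.

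Likeness between genes was measured as the root mean square (RMS) difference of the 9 centred log2 values, over 12251 genes with a mean of at least 50. It describes these 9 libraries, which all genes share. Between the 8 genes, AREG and EREG were at 0.38, ERRFI1 and EREG at 0.48, and ERBB3 and HBEGF, the least alike of the pairs, at 0.87. EGFR and ERBB2 were closest, at 0.26, but EGFR spanned only 0.42 log2 units and so lies near any flat gene.

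Among the genes most like EREG were the keratin gene KRT34 (0.18) and CTSL (0.21), which encodes cathepsin L. KRT34 had 559, 607 and 947 normalized counts in the controls, 838, 991 and 1086 with SKF-96365, and 320.1, 309 and 567 with 2-APB. Most like AREG were SBSN (0.26), MAFF (0.28), a small MAF transcription factor gene, and ADAMTS6 (0.29), a metalloprotease gene. MAFF had 284, 277 and 525 normalized counts with 2-APB and 417 to 707 in the other 6 libraries, so its 2-APB 3 value, unlike that of AREG, reached into the controls.

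ERRFI1 was most like the immediate early gene IER3 (0.14), GRAMD1B (0.19) and CDCP1 (0.19), a transmembrane protein gene. HBEGF was most like TMEM200A (0.12), DNMBP (0.15) and DOCK4 (0.15). ERBB3 was most like PARD3B (0.089), a polarity gene, and PCDH9 (0.10), and ERBB2 like PIK3C2B (0.12), ZNF517 (0.17) and NXNL2 (0.18). TGFA was most like PDE1C (0.13), BICDL1 (0.13) and JCAD (0.16), which share its high value in control 2: PDE1C had 2957 normalized counts there and 1139 to 1656 elsewhere. For EGFR no gene was named, since its values span less than 1 log2 unit. EPGN, named after its values were seen, was most like HIPK2 (0.062), a kinase gene.

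Of 58 other genes of the pathway in 5 lists, 54 were tested and 0 were called in any comparison, beside 0% of all genes. At an unadjusted p under 0.05, 2 of the 54 passed with SKF-96365 (beside 4.0% of all genes), 2 with 2-APB (beside 2.80%), and 6 for 2-APB against SKF-96365 (beside 7.30%), counts near these shares in the comparisons with control. The 8 EGF receptor and ligand genes had median log2 fold changes of 0.051, -0.27 and -0.29 in these 3 comparisons, beside -0.0043, -0.0016 and 0.0073 over all tested genes. With 2-APB all 8 were negative, beside 50.3% of all genes. Of the 8, 3 (ERRFI1, HBEGF and ERBB3) were negative by less than their SE. The values of 2 more rested on a single control library: ERBB2 was 0.017 without control 3, and TGFA -0.031 without control 2.

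Of 6 genes for ligand shedding and trafficking, RHBDF2, which encodes the iRhom2 partner that carries ADAM17 to the surface, had 628, 563 and 891 normalized counts in control and 930.3, 1070.1 and 929.5 with SKF-96365. The groups did not overlap, with a log2 fold change of 0.52 (SE 0.16, unadjusted p = 0.00976, adjusted p = 0.789). Without control 3 limma called it, at 0.71 (adjusted p = 0.0403), among 173 of 17492 genes called in that setting. Leaving out a control that stood near SKF-96365 libraries widens the gap between these groups by construction. The protease gene ADAM10 was at 0.15 with SKF-96365 and -0.083 with 2-APB (SE 0.18 each). The protease inhibitor gene TIMP3 was at 0.49 and 0.33 (SE 0.40 each), and FRMD8, whose product stabilises iRhoms, at -0.15 and -0.18 (SE 0.14 each). The list's median was 0.24 with SKF-96365 and -0.070 with 2-APB.

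Among 22 genes for adaptors and for RAS-MAPK and PI3K signalling, medians were -0.040 with SKF-96365 and -0.074 with 2-APB. The adaptor gene SHC1 was at 0.14 and 0.11 (SE 0.12 each), and PTPN11, encoding the phosphatase SHP2, at -0.14 and -0.13 (SE 0.17 each). HRAS was the lowest with SKF-96365, at -0.48 (SE 0.28), PIK3CA the highest, at 0.26 (SE 0.19), and the ERK kinase gene MAP2K2 the lowest with 2-APB, at -0.28 (SE 0.16). Of 12 genes that down-regulate the receptor, PTPN1, which encodes a phosphatase that acts on receptor tyrosine kinases, was at 0.47 with SKF-96365 and -0.18 with 2-APB (SE 0.26 each). HGS, an endosomal sorting gene, was at -0.0072 and -0.098, SOCS4 at -0.17 and -0.26, and LRIG1, which encodes a transmembrane inhibitor of the family, at 0.15 and 0.30.

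The last list held 10 transcripts known to follow ERK activity. PHLDA1 was at 0.53 with SKF-96365 (SE 0.21, unadjusted p = 0.0331, adjusted p = 0.789). Without control 3 limma called it, at 0.79 (adjusted p = 0.0495), again among the 173 genes of that setting. With 2-APB its value was -0.062. EPHA2, a receptor tyrosine kinase gene, was below all 6 other libraries in the 3 2-APB libraries, at 5808, 6031 and 5901 normalized counts against 6613 to 7223, a log2 fold change of -0.21 against control (SE 0.097, adjusted p = 0.9995). SPRY2, a Sprouty feedback gene, was placed alike, at 353 to 365 against 394 to 543, and was at -0.30 against control (SE 0.13, adjusted p = 0.9995). EPHA4 was at 0.040 and -0.55 (SE 0.36 each), and DUSP6, an ERK phosphatase gene, at 0.36 and 0.036 (SE 0.43 each). CCND1, the cyclin D1 gene, was at -0.32 and -0.12 (SE 0.39 each); with 1 library left out the SKF-96365 value ran from -0.71 without SKF-96365 1 to -0.083 without control 1.

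Within this list, looked at after the values were seen, HBEGF was nearest to SPRY4 (RMS difference 0.17), ETV5 (0.20), ETV4 (0.22) and DUSP6 (0.23). DUSP6 had 406 normalized counts in control 1, 608 in SKF-96365 1 and 509.8 in 2-APB 3, and 203 to 301 in the other 6 libraries. The same 3 libraries were the highest of their groups for HBEGF. The nearest of the 10 to AREG was DUSP4 (0.50), and the nearest to EREG was PHLDA1 (0.40).

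**Figure D4:**
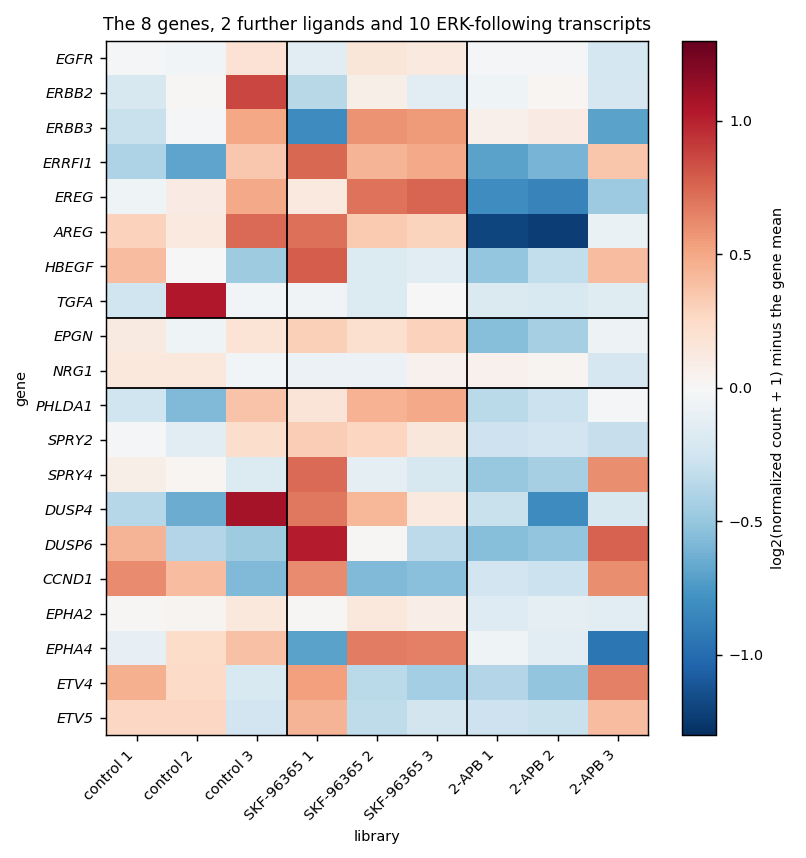
Log2(normalized count + 1) minus the gene's mean over the 9 libraries (colour; red higher, blue lower) for the 8 genes, EPGN and NRG1, and 10 transcripts known to follow ERK activity (rows), in the 9 libraries (columns, lines part the groups). EREG, AREG and EPGN are lower in the 2-APB columns, whereas HBEGF, SPRY4, DUSP6, ETV4 and ETV5 are high in SKF-96365 1 and 2-APB 3. HBEGF, DUSP6, ETV4 and ETV5 are also above their mean in control 1, and ETV4 and ETV5 in control 2.

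Leaving out both control 3 and SKF-96365 1 altered the calls more than any other setting. Limma then called 4823 of 17492 genes for SKF-96365 against control, 0 for 2-APB against control and 2283 for 2-APB against SKF-96365. Of the 8 genes it called 3 for SKF-96365 against control, all higher: EREG at 0.71 (adjusted p = 0.0067), ERRFI1 at 1.01 (0.0297) and ERBB3 at 0.72 (0.0458). For 2-APB against SKF-96365 it called 2, both lower: EREG at -1.45 (0.000433) and ERBB3 at -0.74 (0.04997). EPGN was called there too, at -0.61 (0.0237). Limma called 16 of the 54 tested pathway genes for SKF-96365 against control, a share near that of all genes there. Among only 8 genes, 3 calls cannot be set apart from that share either. The called pathway genes named above were PTPN1 at 0.995 (0.000795), PHLDA1 at 0.89 (0.0029), RHBDF2 at 0.74 (0.00295), PIK3CA at 0.52 (0.0462) and MAP2K2 at 0.38 (0.0351), all higher. CCND1 at -1.07 (0.0138), HRAS at -0.997 (0.00476) and PTPN11 at -0.42 (0.015) were all lower. TIMP3 at 1.095, ADAM10 at 0.42, FRMD8 at -0.35 and EPHA4 at 0.60 also moved away from 0 and were not called (adjusted p = 0.0553, 0.07, 0.068 and 0.117). These 2 libraries were set aside because they stood with another group, which widens the gap between groups by construction, so these p-values are too small.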

How the data were processed

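RNA-seq values of 9 libraries were deposited by the authors as a normalized signal, gene counts divided by a size factor per library; DESeq2 is named in the submitters' processing notes, without a version, and aligner, counter, build, annotation and strand setting are not given in the sources used here. Within each library 100% of values were whole multiples of its smallest step (tolerance 0.001 of a read), and whole reads were taken as recovered for 8 libraries. For SKF-96365 3 the step, 0.992, was too near 1 to be certain.

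Differences were tested with limma 3.58.1 (R 4.3.3) with an intensity trend on log2(normalized count + 1). The 17492 genes with 10 or more in 3 or more libraries entered, all 9 libraries shared the spread, contrasts were two-sided, and Benjamini-Hochberg adjusted p under 0.05 was a call. edgeR 4.0.16 and DESeq2 1.42.0 were run on recovered reads. Symbols were matched by identifier for 60463 genes and from GENCODE 29 for 130 more; exon lengths came from GENCODE 29. Reads carry no molecular identifiers, so PCR copies are not separate molecules and intervals cover counting error only. The fitting code was tested on simulated data.

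The 8 genes, the 5 other lists and the 2 settings that drop or average libraries were chosen with earlier results of these data known. Of each other list, the text names called genes, the 2 with the highest mean, and, per comparison with control, the largest fold change in each direction among genes with a mean of at least 50; genes outside this rule (EPGN's neighbours and likeness, SPRY2, DUSP4, SPRY4, ETV4, ETV5) were named after their values were seen. Likeness was ranked for the 3 nearest genes, of which the text names those with a symbol, except that 1 is not reported here and only the nearest is given for EPGN. Alternatives were pseudocounts of 0.5 and 5, no filter, a mean of at least 50, upper-quartile and quantile scaling, a block on the replicate number, a fit of the compared groups alone, and each library left out.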

Additional observations from a re-analysis of the deposited data

How the results depend on the processing

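AREG and EREG kept their sign in both comparisons with 2-APB, and ERRFI1 and EREG theirs in SKF-96365 against control, under every alternative run; 3 libraries a group and 12 to 60 AREG reads limit the precision of these values. Replicate numbers did not pair the libraries (same-numbered deviations correlated at -0.35 to 0.50, and 3 of 9 libraries lay closest to their own number), and the fit with the replicate block called 0 genes in all 3 comparisons. For SKF-96365 against control, leaving out 1 library gave 0 to 173 called genes and 0 to 2 called pathway genes, the upper values without control 3, and DESeq2 called 2 genes. For 2-APB against SKF-96365 leaving out 1 library gave 0 to 4 genes, again the most without control 3, the fit of only these groups called 4 and DESeq2 1. Without control 3 and SKF-96365 1, a setting chosen after the data were seen, calls for SKF-96365 against control were 4823 of 17492 genes, 3 of the 8 and 16 of 54 pathway genes. For 2-APB against SKF-96365 they were 2283, 2 and 9. Libraries were picked for standing with another group, so the call counts are inflated by that choice.

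The values below changed sign against the reported log2 fold change; none was called in either fit, and the cause was not tested. For SKF-96365 against control, quantile normalization gave EGFR -0.021, AREG -0.022 and HGS 0.033, and upper-quartile scaling HGS 0.023. edgeR gave EGFR -0.023, ERBB3 -0.048, HGS 0.071 and EPHA4 -0.032, and DESeq2 EGFR -0.028, ERBB3 -0.052, HGS 0.067 and EPHA4 -0.036. Both were run without SKF-96365 3. Limma without that library gave the same signs, at EGFR -0.037, ERBB3 -0.18, HGS 0.051 and EPHA4 -0.19. Without control 3 and SKF-96365 1, ERBB2 was 0.063, HBEGF -0.36 and DUSP6 -0.19. For 2-APB against control the same setting gave ERBB2 0.017, ERRFI1 0.23, ADAM10 0.0050, PTPN1 0.13, PHLDA1 0.20 and DUSP6 -0.13. Quantile normalization gave ERRFI1 0.020, ADAM10 0.020 and PHLDA1 0.033. With 2-APB 1 and 2-APB 2 averaged, HBEGF was 0.020, ERRFI1 0.10, PIK3CA -0.078 and CCND1 0.023. For 2-APB against SKF-96365, leaving out control 3 and SKF-96365 1 gave ERBB2 -0.046 and HBEGF 0.019.

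Leaving out 1 library moved SKF-96365 against control over these ranges: EGFR -0.057 to 0.098, ERBB3 -0.20 to 0.50, AREG -0.074 to 0.24, HBEGF -0.14 to 0.39, TGFA -0.57 to 0.077, TIMP3 -0.0075 to 0.80, MAP2K2 -0.012 to 0.25, LRIG1 -0.021 to 0.29, HGS -0.14 to 0.072, DUSP6 -0.032 to 0.65, EPHA2 -0.013 to 0.055 and EPHA4 -0.19 to 0.49. For 2-APB against control the ranges were ERBB2 -0.52 to 0.017, ERBB3 -0.42 to 0.024, HBEGF -0.39 to 0.093, ERRFI1 -0.40 to 0.23, ADAM10 -0.19 to 0.058, TIMP3 -0.17 to 0.64, HRAS -0.31 to 0.10, PIK3CA -0.090 to 0.16, PTPN1 -0.40 to 0.13, PHLDA1 -0.27 to 0.20, DUSP6 -0.40 to 0.32 and CCND1 -0.48 to 0.11. For 2-APB against SKF-96365 they were ERBB2 -0.046 to 0.17 and HBEGF -0.57 to 0.019.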
